A study of Mus musculus with 18 samples.

Results

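The miR-101 family was followed across 18 liver small-RNA libraries. It was taken as the 4 mature forms listed under the miR-101 name in the series' rule: mmu-miR-101a-3p, mmu-miR-101a-5p, mmu-miR-101b-3p and mmu-miR-101c, which are 4 of the 758 mouse miRNAs with deposited values. The rule takes the members by name, and the choice was made with earlier results of these data known. All 4 passed the filter on low values (at least 5 RPM, reads scaled to a common library total, in at least 3 libraries), which 351 of the 758 miRNAs passed.

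The livers came from wild-type C57BL/6J mice, an inbred strain, whose regimens began at 5 weeks of age and whose livers were taken at 62 weeks. There were 6 groups of 3 libraries: HF+CR, HF+Ex, HF, LF+CR, LF+Ex and LF. The labels do not spell the names out. HF and LF are read here as diets high and low in fat, CR as restricted calories and Ex as exercise. No transgene or engineered deletion is listed for any group. Whether each library is a different animal is not stated, so p-values measure only the spread between these libraries, which may be technical.

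A miRNA is cut from a hairpin precursor, and 1 strand of the resulting duplex is loaded into an Argonaute protein to repress mRNAs that pair with its seed, the bases near its 5′ end. The 3p strand is the one mostly retained from the miR-101 hairpins, and the 5p strand is the passenger. miR-101 is abundant in liver and is best known, from human cancer cells, for repressing the mRNA of the polycomb methyltransferase EZH2, and it is often low in human hepatocellular carcinoma.

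The sequences show which members a short read can tell apart. They are the RefSeq mature forms on GRCm38.p6, written 5′ to 3′ with bases 2 to 8 in capitals, and all 4 members were matched by name.
mmu-miR-101a-3p: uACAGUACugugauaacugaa
mmu-miR-101b-3p: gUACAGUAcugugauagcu
mmu-miR-101c: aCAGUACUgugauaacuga
mmu-miR-101a-5p: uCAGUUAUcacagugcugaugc
The 3 abundant-strand forms start 1 base apart on the same run of letters, so their annotated seeds overlap but are not identical. Aligned on that run, mmu-miR-101a-3p and mmu-miR-101b-3p were identical at 17 of 18 bases, and the difference is A16G, counted from 1 at the 5′ end of mmu-miR-101a-3p. All 19 bases of mmu-miR-101c are bases 2 to 20 of mmu-miR-101a-3p. A read holding only those bases fits both, and how such reads were assigned is not given in the sources used here, so the level of mmu-miR-101c is uncertain.

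The hairpins, also from RefSeq on GRCm38.p6, place both strands; the capitals mark the 5p and then the 3p mature form.
Mir101a: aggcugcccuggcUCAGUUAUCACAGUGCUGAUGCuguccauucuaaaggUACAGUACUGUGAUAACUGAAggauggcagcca
Mir101b: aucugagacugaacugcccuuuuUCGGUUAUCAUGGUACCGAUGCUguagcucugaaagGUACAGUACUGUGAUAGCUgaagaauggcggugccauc
Mir101a lies at chr4:101346945-101347027 on the minus strand, in an exon of the long noncoding RNA gene E130102H24Rik. Mir101b lies at chr19:29135279-29135375 on the plus strand, in an intron of Rcl1, a gene for a ribosomal RNA processing protein. Mir101c is annotated at chr9:3038669-3038743 on the minus strand, outside any gene. The bases of mmu-miR-101c also occur in the Mir101a hairpin, from base 52 of its 83. No other deposited miRNA has its gene within 10 kb of any of these loci.

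Only 1 other deposited miRNA shared bases 2 to 7 with mmu-miR-101a-3p, and only 1 shared them with mmu-miR-101b-3p. They are shown, with bases 2 to 8 in capitals as above, since they are the nearest seed relatives by sequence.
mmu-miR-144-3p: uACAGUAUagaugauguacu
mmu-miR-582-5p: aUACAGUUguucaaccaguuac
Neither is identical to a member over bases 2 to 8.

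mmu-miR-101b-3p averaged 23743 ± 4311 RPM over the 18 libraries and ranked 10 of 758 by mean level, between mmu-miR-30a-5p at 23774 RPM and mmu-miR-148a-3p at 21029.8 RPM. mmu-miR-101a-3p averaged 12108 ± 3208 RPM (SD, n = 18) and ranked 16, between mmu-miR-26a-5p at 15535 RPM and mmu-miR-30e-5p at 11176 RPM. The remaining members were scarce. The passenger mmu-miR-101a-5p averaged 38.5 ± 7.50 RPM (rank 200) and mmu-miR-101c averaged 14.7 ± 6.94 RPM (rank 251). Of the summed RPM of the 3 forms other than the passenger, mmu-miR-101b-3p made up 56.9% to 76.9%, mmu-miR-101a-3p 23.1% to 43.1% and mmu-miR-101c 0.0193% to 0.0693%.

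Depth differed between libraries. Reads on listed miRNAs, read from the RPM steps, ran from 2.38 to 10.5 M (megareads), with a median of 6.67 M. The fewest reads behind a value were 19921 for mmu-miR-101a-3p, 41646 for mmu-miR-101b-3p, 67 for mmu-miR-101a-5p and 21 for mmu-miR-101c. The lowest mmu-miR-101c value, 5.88 RPM in HF+CR 1, has an exact 95% binomial (Clopper-Pearson) interval of 3.64 to 8.995 RPM, and the lowest mmu-miR-101a-3p read count, in HF+Ex 1, gives 7986 to 8211 RPM. These intervals cover counting error only. The hepatocyte markers miR-122-5p, miR-192-5p, miR-194-5p and miR-148a-3p summed to between 296138 and 406965 RPM in every library.

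Of the abundant pair, mmu-miR-101a-3p had the wider range, its highest library at 2.92 times its lowest, against 2.002 times for mmu-miR-101b-3p. It read 7040.4, 11699 and 8911 RPM in HF+CR livers, 8098, 10681 and 10462 RPM in HF+Ex, and 10258, 13557 and 12110.4 RPM in HF. It read 20577.5, 17592 and 12785 RPM in LF+CR livers, 14617, 11453 and 12591.5 RPM in LF+Ex, and 11541, 13203.5 and 10772 RPM in LF. The highest 2 of the 18 values were both in LF+CR and the lowest 3 were in HF+CR or HF+Ex. By group mean the order was LF+CR, LF+Ex, HF, LF, HF+Ex and HF+CR, at 16985 ± 3931, 12887 ± 1603, 11975 ± 1654, 11839 ± 1243, 9747 ± 1433 and 9217 ± 2344 RPM (SD, n = 3 each). Neighbours in that order overlapped, except that LF lay wholly above HF+Ex.

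mmu-miR-101b-3p is made from another chromosome than mmu-miR-101a-3p, and most of its groups overlapped. It read 23479, 33891 and 18319 RPM in HF+CR livers, 16929, 21934 and 20944 RPM in HF+Ex, and 22359.9, 25541 and 24829 RPM in HF. It read 27187, 28313 and 21470.4 RPM in LF+CR livers, 27061, 22388 and 26684 RPM in LF+Ex, and 17632, 27554 and 20865 RPM in LF. The highest value of all was HF+CR 2 and the third lowest was HF+CR 3, so the HF+CR group alone covered most of the range. Every pair of neighbours in the order of group means, from LF+CR at 25657 ± 3669 RPM to HF+Ex at 19936 ± 2651 RPM, overlapped and differed by less than the larger SD of the pair.

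**Figure D1:**
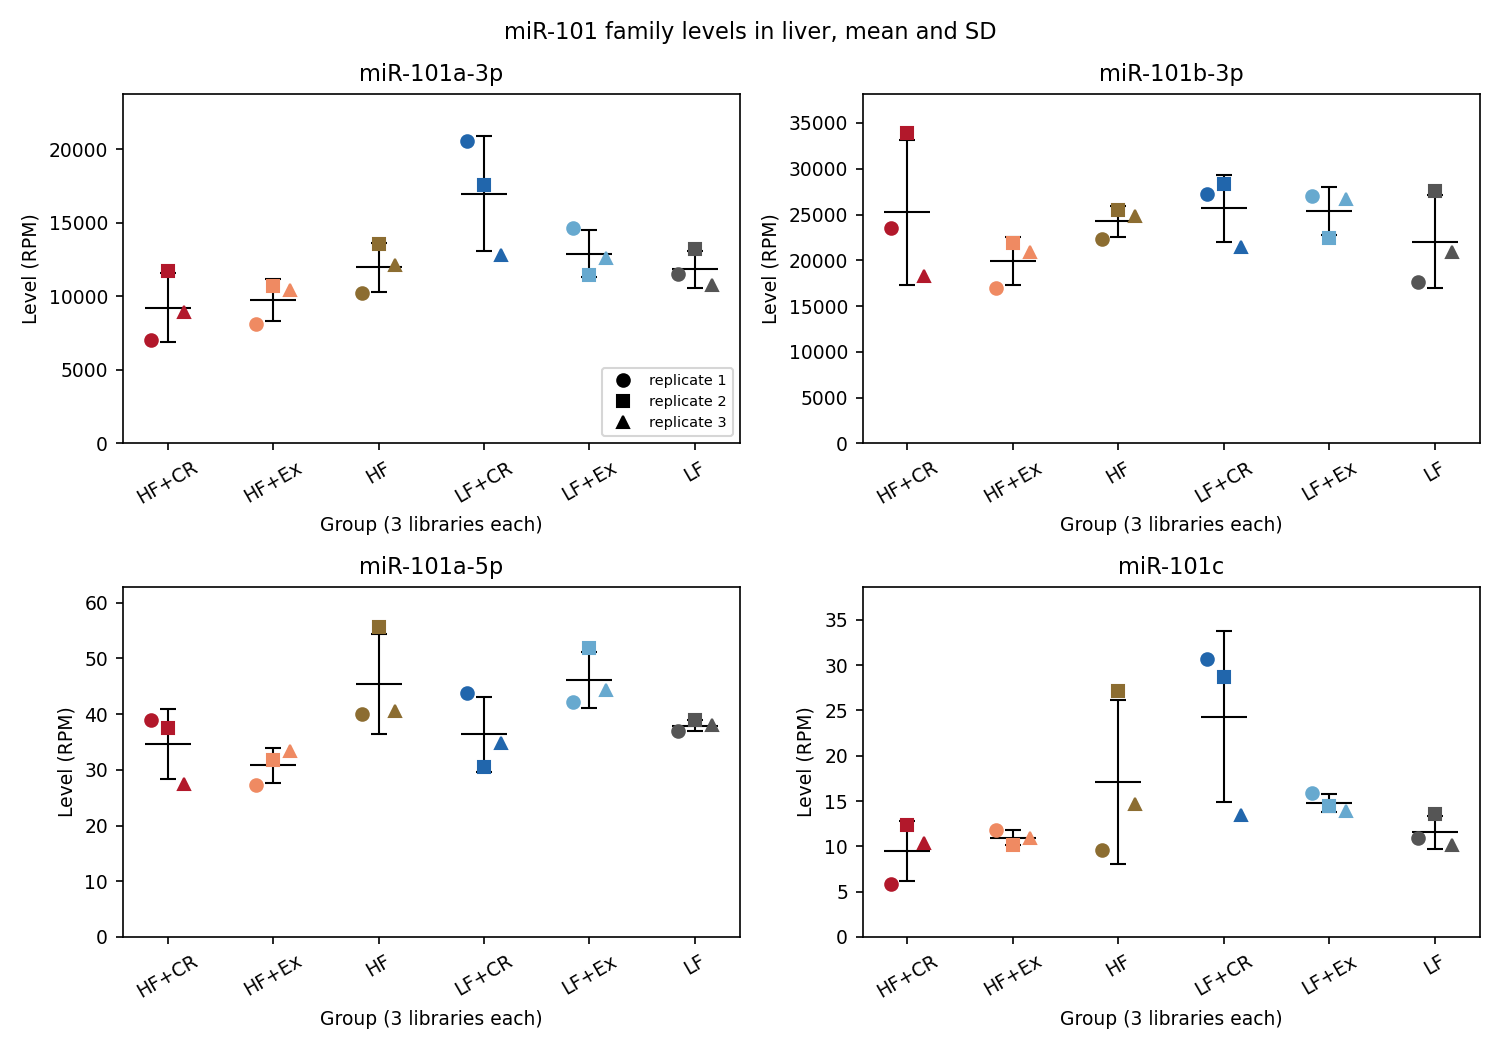
Level in RPM (linear axes from 0) of the 4 members in each of the 18 libraries, by group, with the mean and SD of 3 libraries as black bars and the replicate as the symbol. mmu-miR-101a-3p is highest in LF+CR (12785 to 20577.5 RPM) and lowest in HF+CR (7040.4 to 11699 RPM), while for mmu-miR-101b-3p the HF+CR libraries (18319 to 33891 RPM) overlap those of every other group.

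Averaged over the 3 regimens, mmu-miR-101a-3p fell on HF diet relative to LF diet, and it was the only member that passed the test. Its log2 fold change was -0.43 (SE 0.12), a level 0.744 times that on LF diet, with an adjusted p of 0.0209 by limma over the 351 miRNAs tested. In that comparison 65 of 351 miRNAs passed an adjusted p of 0.05, which is 18.5%, and 9 of them, 2.56%, were lower. The log2 fold changes of the other members were -0.40 for mmu-miR-101c (SE 0.20, adjusted p = 0.146), -0.13 for mmu-miR-101a-5p (SE 0.11, adjusted p = 0.410) and -0.08 for mmu-miR-101b-3p (SE 0.12, adjusted p = 0.639). Over all tested miRNAs the median log2 fold change was 0.19. Rescaling the RPM by median-of-ratios size factors moves the median by -0.20 and gives 26 higher and 23 lower calls, against 56 and 9 before it. On that scale mmu-miR-101a-3p stood at -0.63 (adjusted p = 0.0156).

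That call was close to its threshold. The 3 shallowest libraries, HF+Ex 1 at 2.38, HF+CR 3 at 2.90 and HF+CR 1 at 3.46 M reads, also held the 3 lowest mmu-miR-101a-3p levels. Without them the log2 fold change was -0.26 (adjusted p = 0.184), and 6 miRNAs were called. Leaving out 1 library ended the call for LF 2 (-0.40, adjusted p = 0.0512), LF+CR 1 (-0.38, adjusted p = 0.0520) and LF+Ex 1 (-0.40, adjusted p = 0.0511), with 37, 38 and 38 miRNAs called. Leaving out HF 2 gave 43 calls.

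**Figure D2:**
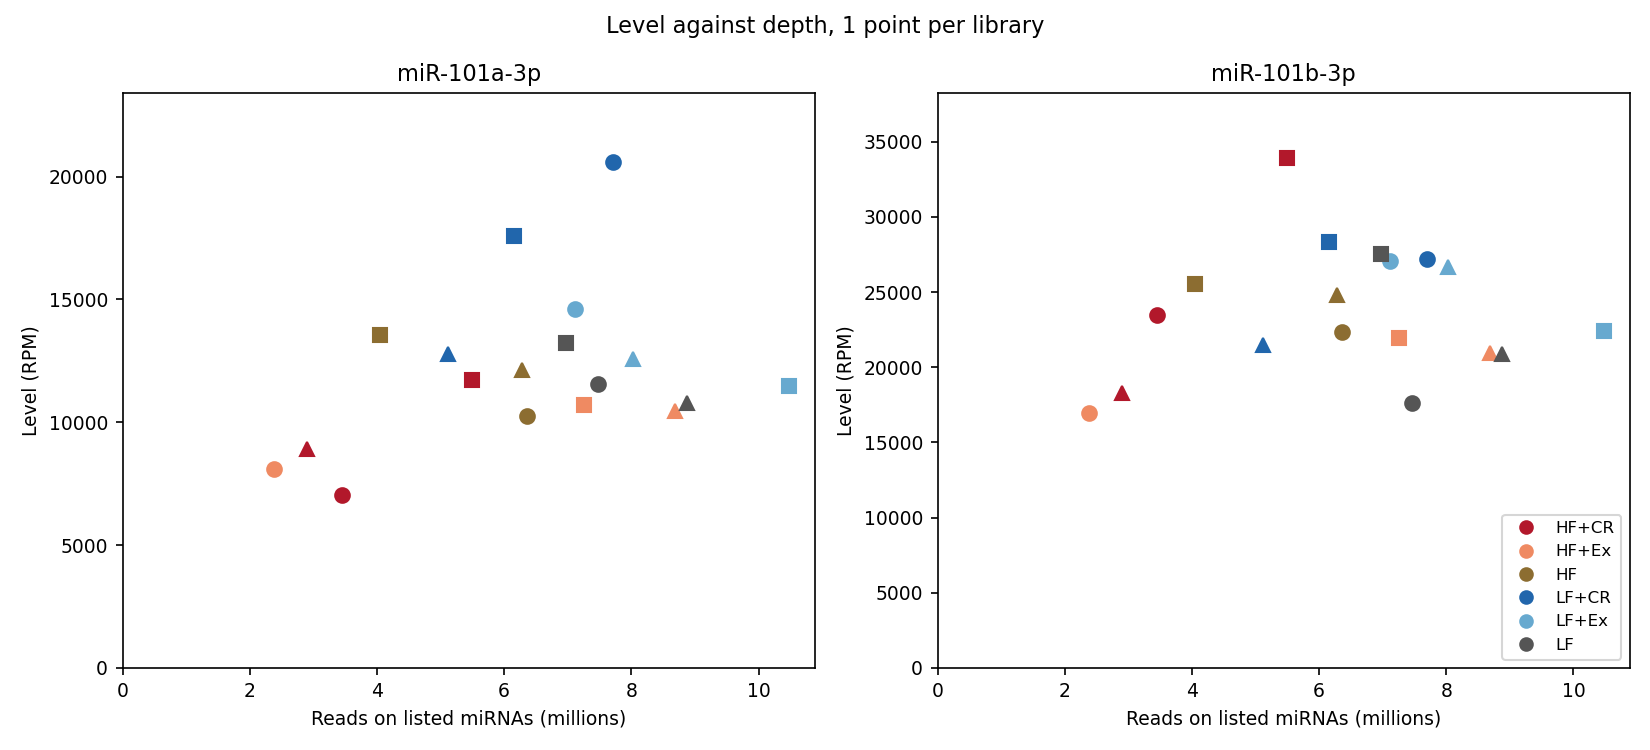
Level of mmu-miR-101a-3p and mmu-miR-101b-3p in RPM against reads on listed miRNAs in megareads (M), 1 point per library, coloured by group, with symbols for replicates 1 (circle), 2 (square) and 3 (triangle). The 3 shallowest libraries, at 2.38 to 3.46 M and all on HF diet, have the 3 lowest mmu-miR-101a-3p levels, between 7040.4 and 8911 RPM.

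Some markers of other cell types were also called between the diets averaged over regimens. In that comparison 65 of 351 miRNAs were called, 18.5%, of which 56 were higher and 9 lower. The 5 deposited leukocyte markers of the 7 listed, among them miR-223-3p, a myeloid miRNA, and miR-155-5p, summed to between 661 and 2947 RPM in HF+CR livers, 2173 and 3387 RPM in HF+Ex, and 1603 and 2163 RPM in HF. Their sums were 528 to 723 RPM in LF+CR livers, 766 to 1039.9 RPM in LF+Ex and 717 to 2457 RPM in LF. None of these markers was at 0 in any library, and 4 of the 5 were called higher on HF diet and 0 lower, with a median log2 fold change of 1.16. Fewer hepatocytes in a sample and less of a miRNA per hepatocyte cannot be told apart in such bulk libraries, and the part of the leukocyte signal in the mmu-miR-101a-3p result was not tested. Of the 4 hepatocyte markers, 0 were called on HF diet. All 4 had a negative log2 fold change, with a median of -0.09 beside 0.19 over all miRNAs. Of the 8 biliary epithelial markers, 0 were called higher and 2 lower on HF diet, all 8 had a negative log2 fold change and the median was -0.25. They summed to between 1457 and 8424 RPM in HF+CR livers, 1122 and 1432 RPM in HF+Ex, and 1576 and 1784 RPM in HF, against 1988 to 3350 RPM in LF+CR livers, 1143 to 3993 RPM in LF+Ex and 1181 to 6686 RPM in LF, and none was at 0 in any library. HF+CR 3, at 8424 RPM, and LF 1, at 6686 RPM, had the highest of these sums and also the highest leukocyte sums of their groups. Of the endothelial markers 1 of the 4 tested was called higher (median 0.32, all 4 above 0). Of the stellate and mural markers 1 of 5 was called higher (median 0.46, 3 above 0 and 2 below). These single calls are near the share called over all miRNAs. Of the 3 erythroid, 2 pancreatic and 4 neuronal markers tested, 0 were called. All 3 erythroid markers had a negative log2 fold change (median -0.45), and the pancreatic and neuronal medians were -0.89 and -0.11. The part of these cell types in the result was not tested either.

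The diets were then compared within each regimen. Without CR or Ex, no member was called: mmu-miR-101a-3p averaged 11975 ± 1654 RPM in HF livers, against 11839 ± 1243 RPM in LF livers (SD, n = 3 each), a log2 fold change of 0.01 (SE 0.20, 95% interval -0.42 to 0.44, limma adjusted p = 0.995). In that comparison 1 of 351 miRNAs was called, 0.285%. mmu-miR-101a-5p, at 40.0, 55.7 and 40.5 RPM in HF and 36.9, 38.9 and 38.0 RPM in LF, did not overlap between the groups, which was so for 19.1% of tested miRNAs, and its log2 fold change was 0.24 (SE 0.19, adjusted p = 0.603). Its nearest values, 38.9 RPM in LF 2 and 40.0 RPM in HF 1, had overlapping 95% binomial intervals, 34.5 to 43.8 and 35.3 to 45.1 RPM.

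For mmu-miR-101a-3p the diets stood furthest apart under CR. This comparison and the one under Ex were added after the averaged diet difference was seen. mmu-miR-101a-3p fell to 9217 ± 2344 RPM in HF+CR, against 16985 ± 3931 RPM in LF+CR (SD, n = 3 each), and the groups did not overlap. This is a log2 fold change of -0.89 (SE 0.20, adjusted p = 0.0191, limma), 0.541 times the LF+CR level. mmu-miR-101c, read at 5.88, 12.3 and 10.4 RPM in HF+CR and at 30.7, 28.7 and 13.5 RPM in LF+CR, fell by 1.24 on the log2 scale (SE 0.35, adjusted p = 0.0417), also without overlap. These were 2 of the 37 miRNAs called, 10.5% of those tested, and of the 5 that were lower, 1.42%. Groups without overlap made up 27.6% of tested miRNAs, and the median log2 fold change over all was 0.38. Rescaling shifts this comparison by -0.33, puts mmu-miR-101a-3p at -1.22 (adjusted p = 0.0107), and gives 6 higher and 19 lower calls, against 32 and 5 before it. Since mmu-miR-101c is contained in mmu-miR-101a-3p, the pair does not count as 2 separate observations.

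mmu-miR-101b-3p was not called between the diets under CR. It averaged 25230 ± 7933 RPM in HF+CR and 25657 ± 3669 RPM in LF+CR (SD, n = 3 each), with a log2 fold change of -0.06 (SE 0.20, 95% interval -0.49 to 0.37, limma adjusted p = 0.854). mmu-miR-101a-5p, made from the same hairpin as mmu-miR-101a-3p, averaged 34.6 ± 6.30 RPM in HF+CR and 36.4 ± 6.77 RPM in LF+CR, a log2 fold change of -0.07 (SE 0.19, 95% interval -0.47 to 0.34, adjusted p = 0.822).

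The mmu-miR-101a-3p call under CR was lost when only the HF+CR and LF+CR libraries entered the fit (adjusted p = 0.176), without the 3 shallowest libraries (-0.51, adjusted p = 0.349), and without LF+CR 1 (-0.73, adjusted p = 0.0998), LF+CR 2 (-0.85, adjusted p = 0.0814) or HF+CR 1 (-0.71, adjusted p = 0.0776). Those 3 single omissions gave 3, 3 and 4 calls, against 37 with all libraries, and mmu-miR-101c lost its call in each of them and without HF+CR 3 (adjusted p = 0.160, 0.143, 0.145 and 0.0535). LF+CR 1 and HF+CR 1, which held the highest and the lowest mmu-miR-101a-3p level, were also the libraries with the most pancreatic miRNA. The 4 pancreatic markers reached 138 RPM together in HF+CR 1, and 348 RPM in LF+CR 1, against 3.57 to 41.2 RPM in the other 16 libraries, where up to 2 of the 4 were at 0. Without both libraries mmu-miR-101a-3p stood at -0.55 (adjusted p = 0.260). The part of pancreatic RNA in the difference was not tested.

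Under Ex every member was lower on HF diet in all 3 libraries, and none passed the test. mmu-miR-101a-3p averaged 9747 ± 1433 RPM in HF+Ex and 12887 ± 1603 RPM in LF+Ex (SD, n = 3 each; log2 fold change -0.41, SE 0.20, limma adjusted p = 0.186). mmu-miR-101b-3p averaged 19936 ± 2651 RPM in HF+Ex and 25378 ± 2596 RPM in LF+Ex (-0.35, SE 0.20, adjusted p = 0.275). mmu-miR-101a-5p read 27.2, 31.7 and 33.5 RPM in HF+Ex and 42.3, 51.8 and 44.3 RPM in LF+Ex (-0.57, SE 0.19, adjusted p = 0.0663). mmu-miR-101c averaged 10.96 ± 0.815 RPM in HF+Ex and 14.8 ± 1.01 RPM in LF+Ex (-0.40, SE 0.35, adjusted p = 0.482). In this comparison 41.9% of tested miRNAs did not overlap and 8.26% (29) were called, so groups without overlap were common. Rescaling shifts it by -0.22 and gives 14 higher and 20 lower calls, against 21 and 8. Leaving out HF+Ex 3 left 2 calls and LF+Ex 1 left 3.

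**Figure D3:**
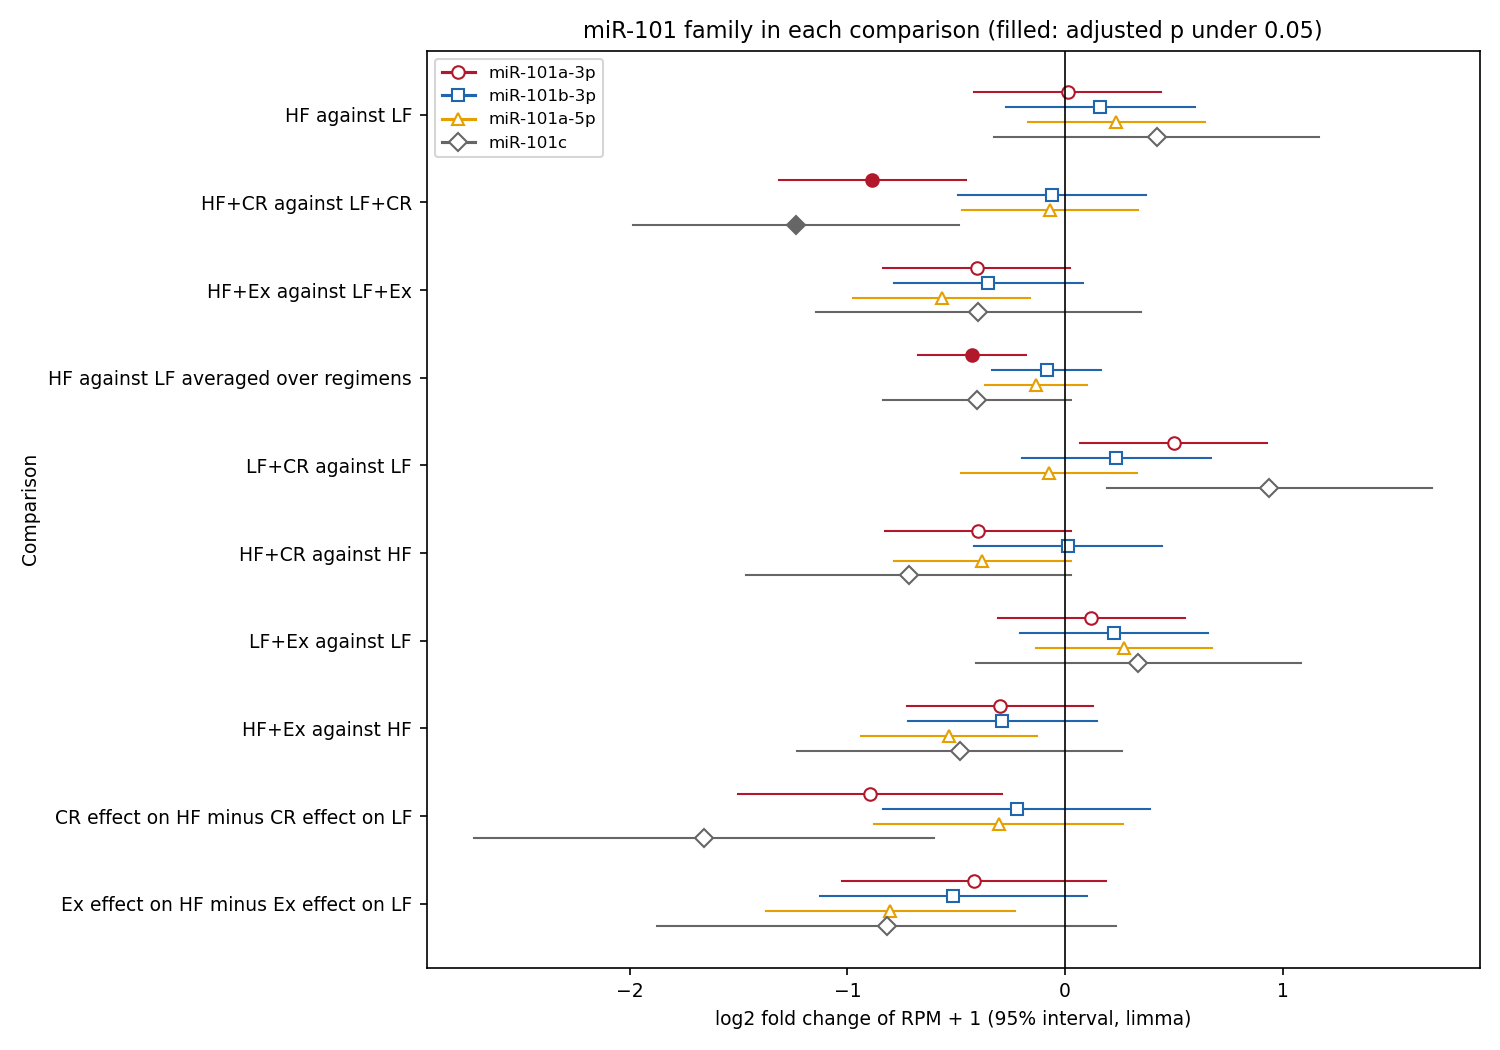
log2 fold changes of the 4 members (points, colour and symbol by member) with 95% intervals from limma on log2(RPM + 1), for 8 comparisons between groups or diets and 2 differences of effects; filled points passed an adjusted p of 0.05. Filled are mmu-miR-101a-3p and mmu-miR-101c in HF+CR against LF+CR and mmu-miR-101a-3p in HF against LF averaged over regimens.

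CR was also set against no CR on each diet, and mmu-miR-101a-3p passed the test on neither. On LF diet the log2 fold change of LF+CR against LF was 0.50 (SE 0.20, adjusted p = 0.126), where 6.27% of miRNAs (22, of which 20 lower) were called and the median was -0.32. mmu-miR-101c had 0.94 (SE 0.35, adjusted p = 0.106), mmu-miR-101b-3p 0.24 (SE 0.20, adjusted p = 0.467) and mmu-miR-101a-5p -0.07 (SE 0.19, adjusted p = 0.831). LF+CR 3 was the lowest LF+CR library for mmu-miR-101a-3p and lay within the LF range. Without it mmu-miR-101a-3p (0.69, adjusted p = 0.0423) and mmu-miR-101c (1.30, adjusted p = 0.0280) passed and 40 miRNAs were called, while without LF+CR 1 or LF+CR 2 there were 5 calls each. Median-of-ratios rescaling shifts this comparison by 0.33, gives 7 higher and 7 lower calls, turns mmu-miR-101a-5p to 0.25, and puts mmu-miR-101a-3p at 0.83 (adjusted p = 0.0790).

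On HF diet, HF+CR against HF gave log2 fold changes of -0.40 for mmu-miR-101a-3p (SE 0.20, adjusted p = 0.327), -0.72 for mmu-miR-101c (SE 0.35, adjusted p = 0.318), -0.38 for mmu-miR-101a-5p (SE 0.19, adjusted p = 0.327) and 0.01 for mmu-miR-101b-3p (SE 0.20, adjusted p = 0.979). By limma 0 of 351 miRNAs were called here, and 53, 15.1%, had an unadjusted p under 0.05. mmu-miR-101a-5p lay below in all 3 HF+CR libraries, at 39.0, 37.5 and 27.4 RPM, against 40.0, 55.7 and 40.5 RPM in HF, and 14.5% of tested miRNAs did not overlap. The binomial intervals of its nearest values, 39.0 and 40.0 RPM, overlapped. Leaving out HF+CR 3 gave 22 calls, none of them a member. mmu-miR-101a-3p stood at -0.22 without HF+CR 1 and at -0.024 without the 3 shallowest libraries, and mmu-miR-101c at -0.34 without HF 2, -0.44 without HF+CR 1 and -0.32 without the 3 shallowest.

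The difference between the CR effects, HF minus LF, was -0.90 for mmu-miR-101a-3p (SE 0.29, unadjusted p = 0.00642, limma adjusted p = 0.191) and -1.66 for mmu-miR-101c (SE 0.50, unadjusted p = 0.00435, adjusted p = 0.191). They ranked 10 and 5 of 351 by p, and 3 miRNAs passed, 0.855%. The same difference was -0.22 for mmu-miR-101b-3p (SE 0.29, adjusted p = 0.712) and -0.31 for mmu-miR-101a-5p (SE 0.27, adjusted p = 0.606). Without HF+CR 2, the highest of the HF+CR libraries, the mmu-miR-101a-3p difference was -1.09 (adjusted p = 0.0496) and 9 miRNAs passed. HF+CR 2 and LF 2 had the highest sums of the 5 neuronal markers, 366 and 217 RPM. Without both, the difference was -1.17 (adjusted p = 0.0358) and 17 miRNAs passed. It was -0.52 (adjusted p = 0.664) without the 3 shallowest libraries and -0.57 (adjusted p = 0.506) without LF+CR 1 and HF+CR 1. The mmu-miR-101c difference passed without LF+CR 3 (-2.02, adjusted p = 0.0448). Averaged over diets, CR left mmu-miR-101a-3p at 0.05 (SE 0.14, 95% interval -0.25 to 0.35, adjusted p = 0.833), and no member was among the 23 (6.55%) called, of which 1 was higher and 22 lower, against 3 and 5 after rescaling.

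No member was called for Ex on either diet. Averaged over diets 0 of 351 miRNAs were called for Ex by limma, 12 (3.42%) had an unadjusted p under 0.05, and the log2 fold changes of the members lay between -0.13 and -0.03. HF+Ex against HF gave -0.53 for mmu-miR-101a-5p (SE 0.19, unadjusted p = 0.0132, limma adjusted p = 0.356), with 27.2, 31.7 and 33.5 RPM in HF+Ex below the 40.0, 55.7 and 40.5 RPM in HF. mmu-miR-101b-3p was also lower in all 3 HF+Ex libraries (-0.29, SE 0.20, adjusted p = 0.783). Groups without overlap made up 17.9% of tested miRNAs there, and 0.855% (3) were called. On LF diet, LF+Ex against LF gave 0.12 for mmu-miR-101a-3p (SE 0.20, adjusted p = 0.802) and 0.27 for mmu-miR-101a-5p (SE 0.19, adjusted p = 0.532). By limma 0 miRNAs passed on LF diet, and 41, 11.7%, had an unadjusted p under 0.05. mmu-miR-101a-5p and mmu-miR-101c lay above LF in all 3 LF+Ex libraries, and 21.4% of tested miRNAs did not overlap. For both members the binomial intervals of the nearest values overlapped. The difference between the Ex effects, HF minus LF, was -0.80 for mmu-miR-101a-5p (SE 0.27, unadjusted p = 0.00912, adjusted p = 0.149), where 3 miRNAs were called, 0.855%, none of them a member and all lower. Rescaling gives 1 higher and 7 lower calls there.

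A ratio of RPM within a library does not depend on the library total. Log2 differences of ratios were taken on log2(RPM + 1), which changes those with the scarce members slightly. The ratio of mmu-miR-101b-3p to mmu-miR-101a-3p was 3.33, 2.90 and 2.06 in HF+CR, 2.09, 2.05 and 2.002 in HF+Ex, and 2.18, 1.88 and 2.05 in HF. It was 1.32, 1.61 and 1.68 in LF+CR, 1.85, 1.95 and 2.12 in LF+Ex, and 1.53, 2.09 and 1.94 in LF. HF+CR lay wholly above LF+CR, with a log2 difference of 0.83, a ratio 1.77 times as high, and an exact two-sided permutation p of 0.1, the smallest that 3 against 3 libraries allow. Averaged over regimens the ratio was higher on HF diet by 0.34 on the log2 scale (exact permutation within regimens, p = 0.011). The null of that permutation is no diet effect in any regimen. Most of the average came from the 0.83 under CR. The log2 difference was 0.15 for HF against LF (exact permutation p = 0.5) and 0.055 for HF+Ex against LF+Ex (exact permutation p = 0.5). The CR effect on the ratio differed between diets by 0.68 (HF minus LF, exact permutation within diets, p = 0.045). That permutation exchanges CR and control labels, so its null is no CR effect on either diet. Its p does not test the difference between diets alone. After Benjamini-Hochberg adjustment over the 12 ratio tests the permutation p-values of 0.011 and 0.045 became 0.132 and 0.22, and no ratio test passed 0.05.

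The ratio of guide to passenger, mmu-miR-101a-3p to mmu-miR-101a-5p, averaged 272 ± 79.7 in HF+CR, 316 ± 20.1 in HF+Ex and 266 ± 28.8 in HF, against 471 ± 104 in LF+CR, 284 ± 62.4 in LF+Ex and 312 ± 27.8 in LF (SD, n = 3 each). All 3 LF+CR libraries, at 368 to 575, stood above each library of the other groups, at 181 to 346. The log2 difference was -0.82 for HF+CR against LF+CR and 0.57 for LF+CR against LF, each with an exact permutation p of 0.1. The averaged diet difference was -0.29 (exact permutation p = 0.088, adjusted 0.264). mmu-miR-101c ran at 0.0836% to 0.200% of mmu-miR-101a-3p, and the difference of its CR effects relative to mmu-miR-101a-3p was -0.76 (HF minus LF, exact permutation p = 0.055, adjusted 0.22). The null of that permutation is again no CR effect on either diet.

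**Figure D4:**
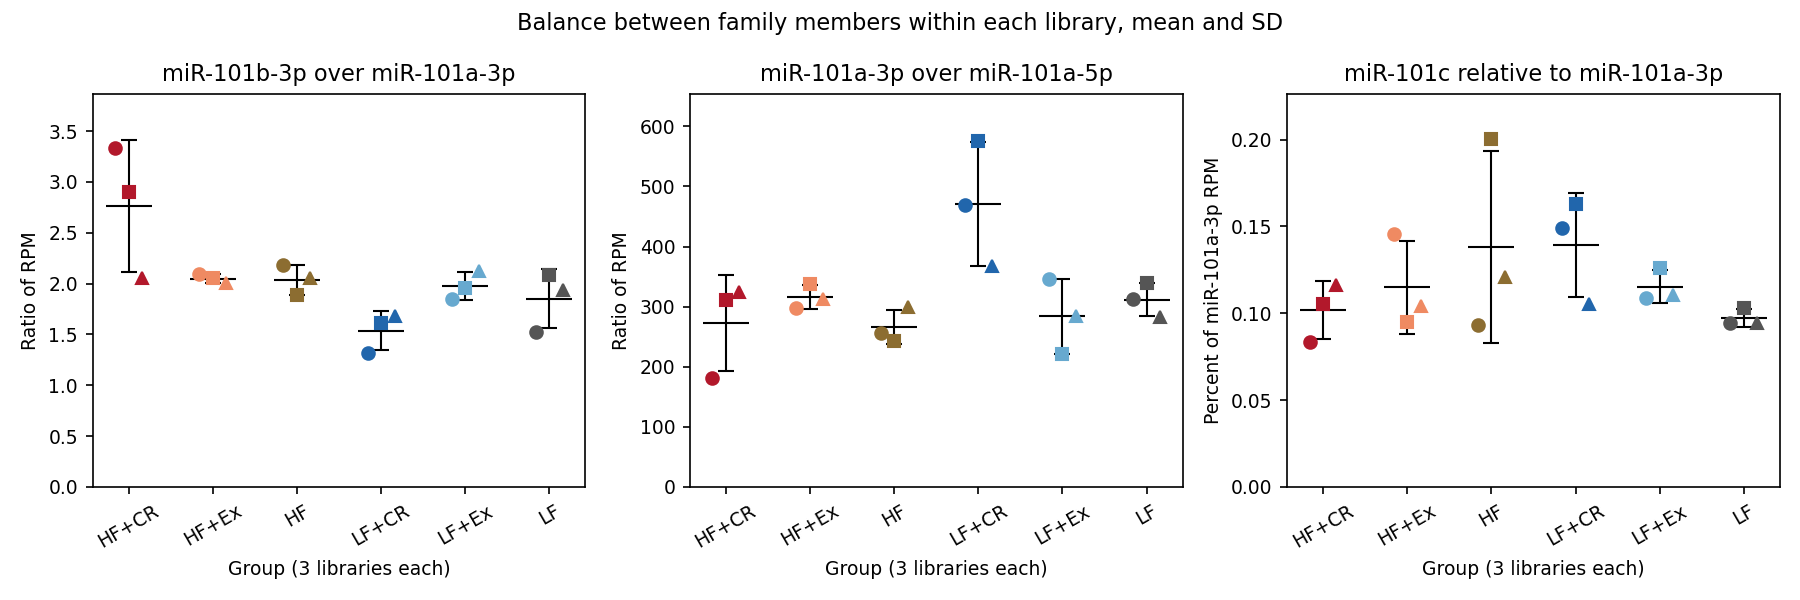
Ratios of RPM between members in each library (linear axes from 0; the third panel in percent), by group, with the mean and SD of 3 libraries as black bars and symbols for replicates 1 (circle), 2 (square) and 3 (triangle). The ratio of mmu-miR-101b-3p to mmu-miR-101a-3p is 2.06 to 3.33 in HF+CR and 1.32 to 1.68 in LF+CR.

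Outside the family, the pattern most like that of mmu-miR-101a-3p over the 18 libraries was that of mmu-miR-29c-3p (Pearson r = 0.79 of log2(RPM + 1)). Next came mmu-miR-30e-5p (0.69), the seed relative mmu-miR-144-3p (0.66), mmu-miR-30a-5p (0.64) and mmu-miR-29a-3p (0.54). For mmu-miR-101b-3p the nearest outside the family were mmu-miR-194-5p (0.84), mmu-miR-881-3p (0.68), mmu-miR-30a-5p (0.65), mmu-miR-29c-3p (0.59) and mmu-miR-30e-5p (0.57). Between the members, mmu-miR-101a-3p had an r of 0.88 with mmu-miR-101c, 0.58 with mmu-miR-101b-3p and 0.36 with mmu-miR-101a-5p. These are descriptions: the libraries form 6 groups and all values of a library share its total and depth. Within groups, the r of mmu-miR-101a-3p was 0.54 with mmu-miR-29c-3p, 0.33 with mmu-miR-30e-5p and 0.71 with mmu-miR-101b-3p. Without the 2 libraries farthest from the mmu-miR-101a-3p median, its r was 0.35 with mmu-miR-29a-3p. It was 0.65 to 0.84 with the other miRNAs outside the family named for it. mmu-miR-881-3p averaged 6.04 RPM, and its r with mmu-miR-101b-3p was 0.34 without the 2 libraries farthest from the mmu-miR-101b-3p median.

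mmu-miR-144-3p, an erythroid miRNA that shares bases 2 to 7 with mmu-miR-101a-3p, averaged 1343 ± 639 RPM in HF+CR and 1912 ± 264 RPM in LF+CR (SD, n = 3 each). Its log2 fold change was -0.60 (SE 0.38, limma adjusted p = 0.287), and averaged over regimens it was -0.45 on HF diet (SE 0.22, adjusted p = 0.141). It was called in none of the 12 comparisons. mmu-miR-582-5p ranged from 7.85 to 389 RPM and was not called in any of them either.

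Other miRNAs reported to repress Ezh2 were listed to set the family beside them. Of the 13, 12 were tested. On HF diet averaged over regimens, 3 were higher and 0 lower, where 56 higher and 9 lower calls among all 351 miRNAs made up 18.5%, and the median log2 fold change was 0.07 beside 0.19 over all miRNAs. The most abundant were let-7a-5p (0.19, SE 0.08, limma adjusted p = 0.0929), let-7c-5p (0.49, SE 0.10, adjusted p = 0.00917), miR-26a-5p (0.07, SE 0.11, adjusted p = 0.695) and let-7b-5p (0.50, SE 0.12, adjusted p = 0.0132). The third call was miR-214-3p, a stellate and mural cell miRNA, named after its values were seen (0.94, SE 0.29, adjusted p = 0.0411). In HF+CR against LF+CR the same count, 3 higher and 0 lower, held for let-7b-5p, let-7c-5p and miR-214-3p. The list median was 0.28 beside 0.38, and 37 of all 351 miRNAs were called, 10.5%. In HF+Ex against LF+Ex 3 were also higher and 0 lower, where 29 of all 351 miRNAs were called, 8.26%. The list median there was 0.20 beside 0.22. In LF+CR against LF, 0 were higher and 3 lower (let-7b-5p, let-7c-5p and miR-98-5p, the last named after its values were seen). The list median was -0.66 beside -0.32, and 22 of all 351 miRNAs were called, 6.27%, of which 20 were lower. Calls of let-7 forms share a family and do not count as separate observations.

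Of 14 miRNAs listed for hepatocytes, 13 were tested. Whether each is enriched in hepatocytes over other liver cells was not tested. Averaged over regimens on HF diet, 1 was higher and 0 lower, with a median of -0.06 beside 0.19 over all miRNAs. In that comparison 18.5% of the 351 miRNAs were called. The most abundant by mean level were miR-122-5p at 247232 RPM, miR-21a-5p at 83602 RPM, miR-194-5p at 52787 RPM and miR-192-5p at 32458 RPM, and none of these 4 was called. The call was miR-22-3p (0.32, SE 0.11, limma adjusted p = 0.0494), named after its values were seen. In HF+CR against LF+CR the counts were also 1 higher and 0 lower, where 10.5% of all 351 miRNAs were called. The call was miR-455-3p (1.07, SE 0.30, limma adjusted p = 0.0417), likewise named after its values were seen. In HF+Ex against LF+Ex, 0 were higher and 1 lower, miR-148a-3p (-1.41, SE 0.22, limma adjusted p = 0.00141), also named after its values were seen. The list median was -0.17 beside 0.22 over all miRNAs, of which 8.26% were called. A single call among 13 was below each of these shares.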

How the data were processed

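Small RNA of frozen liver was extracted with Trizol and sequenced on Illumina chemistry, per the labels' protocols. The values the authors deposited are RPM, a read count over the library total, per mature miRNA, per the file headers, with mm10 as the genome, per the submitters' processing notes. What aligned and counted the reads, and how reads that fit several miRNAs were treated, was not given in the sources used here. RPM is relative to the whole library, so abundant miRNAs that change shift the rest, and listed miRNAs hold 96.4% to 97.1% of the scale. Every value (100%, to within 0.001 reads) was a whole multiple of 1 step per library, read as 1 read; the smallest listed value was 2 reads. Reads carry no molecular identifiers.

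The titles gave the groups and the replicate numbers. Tests ran on log2(RPM + 1) with limma 3.58.1 in R 4.3.3 (all 18 libraries in 1 fit, intensity trend, two-sided), with Benjamini-Hochberg adjustment over 351 miRNAs with at least 5 RPM in 3 libraries; 407 were not tested. A fold change on this scale understates that of low miRNAs. Calls are at an adjusted p under 0.05. Ratios between members were compared by exact two-sided permutation of libraries (Python 3.11.15, numpy 2.4.6). Both were tested on simulated data. Sequences are RefSeq's (GRCm38.p6), and gene positions are from GENCODE on GRCm38.

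The members and lists were chosen with earlier results of these data known. Named were the members, the 5 most alike miRNAs outside the family per abundant member, seed relatives, neighbours by position or abundance, and up to 4 abundant members of each list. Markers were matched by deposited name. HF+CR against LF+CR, HF+Ex against LF+Ex, the difference of CR effects on ratios, voom weights and the sets of libraries left out (shallow, leukocyte and epithelial, pancreatic, neuronal) were added after seeing the data. Other alternatives were rescaling, a pseudocount of 5, a filter of 50 RPM or none, only the compared groups, no trend, a replicate block and each library left out.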

Additional observations from a re-analysis of the deposited data

How the results depend on the processing

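mmu-miR-101a-3p on HF against LF diet averaged over regimens was below 0 in all 29 alternatives and passed in 24. It ranged from -0.49 to -0.37 as single libraries were left out, and was -0.26 without the 3 shallowest libraries and -0.32 without LF+CR 1 and HF+CR 1, both missing the threshold. In HF+CR against LF+CR it was below 0 in all 18 and passed in 12, from -1.08 to -0.71 with single libraries left out; it missed the threshold at -0.89 in the fit of the compared groups, -0.51 without the 3 shallowest and -0.55 without LF+CR 1 and HF+CR 1. mmu-miR-101c kept its sign there in all 17 and passed in 7. In LF+CR against LF, mmu-miR-101a-3p ran from 0.35 to 0.69, and the difference of CR effects from -1.09 to -0.72, with single libraries left out, and was -1.17 without LF 2 and HF+CR 2, where it passed, and -0.52 and -0.57 without the 3 shallowest and without LF+CR 1 and HF+CR 1, where it did not. In HF+CR against HF it ran from -0.59 to -0.22, and was -0.024 without the 3 shallowest. The cause was not tested. mmu-miR-101b-3p passed in no alternative. Depth limits mmu-miR-101c most, at 21 to 244 reads.

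Values near 0 changed sign. For HF against LF, mmu-miR-101a-3p (0.01) became -0.045 under rescaling, -0.0034 without LF 1 and HF+CR 3, and -0.082 to 0.12 with single libraries left out. In LF+CR against LF, mmu-miR-101a-5p became 0.25 under rescaling and -0.21 to 0.039 with single libraries left out. In HF+CR against HF, mmu-miR-101b-3p became -0.22 without LF 2 and HF+CR 2 and ran from -0.22 to 0.22. It became 0.11 in the averaged diet comparison and 0.25 in the difference of CR effects without the 3 shallowest, and 0.13 in the difference of CR effects without LF 1 and HF+CR 3. For CR averaged over diets, mmu-miR-101a-3p became -0.0036 without LF 2 and HF+CR 2 and ran from -0.044 to 0.15, and mmu-miR-101c from -0.055 to 0.30. For Ex averaged over diets, rescaling gave 0.0065, 0.064 and 0.017 for mmu-miR-101a-3p, mmu-miR-101b-3p and mmu-miR-101c; mmu-miR-101b-3p was 0.025 without the 3 shallowest, 0.055 without LF 2 and HF+CR 2 and -0.11 to 0.055 with single libraries left out, and mmu-miR-101c -0.24 to 0.11. In HF+CR against LF+CR, mmu-miR-101a-5p became 0.060 and mmu-miR-101b-3p 0.41 without the 3 shallowest, 0.086 and 0.15 without LF 1 and HF+CR 3, and mmu-miR-101b-3p 0.015 without LF+CR 1 and HF+CR 1; they ran from -0.18 to 0.086 and -0.30 to 0.15. The log2 ratio of mmu-miR-101c to mmu-miR-101a-3p on averaged diet became -0.058 by medians, -0.0305 without the 3 shallowest and -0.014 without LF 1 and HF+CR 3, and ran from -0.072 to 0.096. For Ex it became -0.073 without the 3 shallowest and ran from -0.095 to 0.16, and for CR from -0.051 to 0.20. The ratio of mmu-miR-101b-3p to mmu-miR-101a-3p became -0.0090 for Ex without LF 1 and HF+CR 3 and ran from -0.0090 to 0.10, and for CR from -0.00045 to 0.17. The ratio of mmu-miR-101a-3p to mmu-miR-101a-5p ran from -0.034 to 0.13 for Ex.

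Counts of called miRNAs moved as follows. HF against LF (1): 0 at 50 RPM, 2 under rescaling, 0 in the fit of the compared groups, 7 without LF 1 and HF+CR 3, 0 without LF 2 and HF+CR 2, and 0 to 2 with single libraries left out. LF+CR against LF (22): 14 under rescaling, 0 in the fit of the compared groups, 5 without LF+CR 1 and HF+CR 1, 55 without LF 2 and HF+CR 2, and 5 (without LF+CR 1 or LF+CR 2) to 40 (without LF+CR 3), with 9 without LF 1 and 11 without LF 3. LF+Ex against LF (0): 1 with voom and 0 to 2 (without LF 2). HF+CR against HF (0): 9 without the 3 shallowest, 25 without LF 1 and HF+CR 3, and 0 to 22 (without HF+CR 3). HF+Ex against HF (3): 1 with no filter, under rescaling, in the fit of the compared groups and with no trend, and 0 (without any 1 HF library, HF+Ex 2 or HF+Ex 3) to 5 (without HF+Ex 1). Averaged diet (65): 6 without the 3 shallowest, 24 without LF+CR 1 and HF+CR 1, and 37 (without LF 2) to 91. Averaged CR (23): 8 under rescaling, 0 in the fit of the compared groups, 49 without the 3 shallowest, 63 without LF 1 and HF+CR 3, 0 without LF+CR 1 and HF+CR 1, 12 without LF 2 and HF+CR 2, and 0 (without HF 2) to 78 (without HF+CR 3). Difference of CR effects (3): 1 under rescaling, in the fit of the compared groups and without LF+CR 1 and HF+CR 1, 6 without the 3 shallowest and without LF 1 and HF+CR 3, 17 without LF 2 and HF+CR 2, and 1 (without HF 3) to 9 (without HF+CR 2). Difference of Ex effects (3): 5 with no filter, 8 under rescaling, 12 in the fit of the compared groups, 5 without the 3 shallowest, and 6 without LF 1 and HF+CR 3 and without LF 2 and HF+CR 2. HF+CR against LF+CR (37): 13 with no filter, 4 in the fit of the compared groups, 24 with voom, 16 without the 3 shallowest, 4 without LF+CR 1 and HF+CR 1, and 3 (without LF+CR 1 or LF+CR 2) to 51. HF+Ex against LF+Ex (29): 18 with no filter, 59 in the fit of the compared groups, and 2 (without HF+Ex 3) to 16 (without LF+Ex 3).

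Libraries of the same number did not deviate together (r -0.42 to 0.61, mean 0.03, against -0.01 for other numbers; 7 of 18 libraries were nearest their own number), so the numbers were not used to pair them. With the replicate block, the averaged diet comparison had 55 calls and mmu-miR-101a-3p an adjusted p of 0.0220, HF+CR against LF+CR had 48 and 0.0218, and the difference of CR effects had 2 and 0.145. The planned edgeR alternative was not run.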

Other observations

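mmu-miR-101b-5p, the passenger of the Mir101b hairpin, is not among the members and fell under the filter. It was listed at 4.76, 3.17 and 2.34 RPM in HF+CR and at 0.881, 0.945 and 1.52 RPM in LF+CR. Its means were 3.54 ± 1.71 RPM in HF+Ex, 3.13 ± 1.07 RPM in HF, 3.32 ± 1.16 RPM in LF+Ex and 3.30 ± 1.32 RPM in LF (SD, n = 3 each). These values rest on 6 to 50 reads, and no test was run on them.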
